A study of Mus musculus with 6 samples.

Results

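Classical monocytes were described in the lungs of 6 male hCTLA4 mice (C57BL/6 background with human CTLA4 exons in place of the mouse ones), so that every group carried the same knock-in. All mice were 12 weeks old and received oropharyngeal bleomycin at 1.25 U/kg, in 2 doses given 2 weeks apart, which makes bleomycin injury common to both groups and leaves no uninjured mouse among the samples. From day 21 after the second bleomycin dose, by the paper's account, the mice received antibody intraperitoneally, 2 times a week for 4.5 weeks. It was given at 5 mg/kg and was an IgG1 isotype antibody (3 mice) or ipilimumab, an antibody to human CTLA4 (3 mice). The right lung was digested and live cells were profiled in 1 droplet library per mouse (10x Genomics 3′ chemistry), with no sort for monocytes. Members were chosen by their measured UMIs: barcodes with at least 1000 unique molecular identifiers (UMIs, each 1 captured RNA molecule), at least 500 genes and at most 10% mitochondrial UMIs that carried at least 1 UMI of Ly6c2, 2 of Ccr2 and F13a1 together and 5 of Lyz2, fewer than 2 of the 4 nonclassical genes Ace, Treml4, Cd300e and Adgre4, fewer than 5 C1q UMIs, and none of Flt3, Atp6v0d2, Cd79a or Cd3e. The rule found 203 classical monocytes among 25704 passing barcodes, or 0.790%.

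Classical monocytes leave the bone marrow through the chemokine receptor CCR2, enter injured tissue from the blood, and there become macrophages or dendritic-like cells, or convert in the circulation to patrolling nonclassical monocytes. In the injured lung they are the main precursors of the macrophages recruited to sites of repair. They also respond readily to type I and type II interferons, which act on short GAAA repeats in the promoters of interferon-stimulated genes. CTLA4 is a T cell receptor that restrains costimulation through CD80 and CD86, and monocytes carry those ligands together with the Fc receptors that bind the antibody's constant region.

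The libraries held 4530, 4320 and 3344 passing barcodes in IgG1 replicates 1, 2 and 3, and 5170, 4160 and 4180 in ipilimumab replicates 1, 2 and 3. From 0 to 9 barcode sequences were shared between any pair of libraries. Ipilimumab replicate 1 stood apart, with 16682 barcodes of at least 100 but under 1000 UMIs against 1279 to 2023 in the other libraries. Some results, though not all that rest on it, are also given without it. The median classical monocyte had 12162, 12834.5 and 12674 UMIs in the IgG1 mice and 13342.5, 12070 and 11722 in the ipilimumab mice, and the depth per cell therefore overlapped between the groups. Summed over the cells of a mouse, there were 437900, 768805 and 426642 UMIs for IgG1 and 271054, 231141 and 360428 for ipilimumab. Ambient RNA was estimated at 3.52%, 3.11% and 1.88% of these UMIs in the IgG1 mice and at 1.64%, 0.648% and 1.83% in the ipilimumab mice. It was thus higher in every IgG1 mouse, though replicates 3 of the groups nearly met.

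The label was checked against markers. Ly6c2, Ccr2 and F13a1 chose the cells, so their levels describe the rule: F13a1, the transglutaminase subunit of coagulation factor XIII, had 744 ± 114 counts per 1000000 UMIs of the class (CPM; mean ± SD, n = 6 mice) and Ly6c2, the surface antigen that defines these cells in the mouse, had 989 ± 199 CPM. Fn1 and Ms4a4c were not used by the rule. Fn1, which encodes the matrix protein fibronectin, had 1222 ± 134 CPM in classical monocytes, 200 ± 117 CPM in nonclassical monocytes and 1121 ± 213 CPM in alveolar macrophages, and so was not particular to the class. Ms4a4c, a membrane protein of interferon-responsive monocytes, had 440 ± 89.5 CPM against 121 ± 43.0 CPM in nonclassical monocytes. Vcan, the proteoglycan versican, had 255 ± 155 CPM against 47.3 ± 29.1 CPM in nonclassical monocytes, with 5.15 CPM or less in C1q macrophages, alveolar macrophages, neutrophils and dendritic cells. Plac8 had 2501 ± 339 CPM and was also abundant in nonclassical monocytes, at 1443 ± 422 CPM. Of the markers that the rule did not use, Ms4a4c, Vcan and Plac8 were higher than in each of the other myeloid classes shown. Chil3, another classical marker that the rule did not use, helped to choose the alveolar macrophages. It was not among the genes of greatest ratio described below. C1qa, which the rule limited, stood at 1.08 ± 1.69 CPM.

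**Figure D1:**
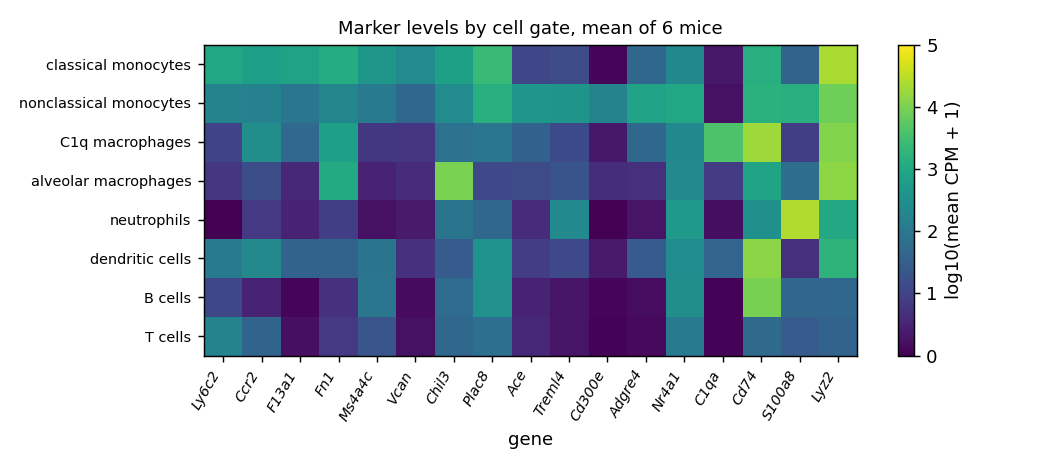
Mean level of 17 genes (columns) in 8 cell gates (rows), as log10 of CPM + 1 averaged over 6 mice. Classical monocytes combine high Ly6c2, Ccr2, F13a1, Fn1 and Vcan with low Ace, Treml4, Cd300e, Adgre4 and C1qa, and Fn1 is also high in alveolar macrophages.

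The 15 genes chosen as those with at least 100 CPM whose ratio to the next myeloid class was greatest after adding 10 CPM described the class further. F13a1 led with a ratio of 7.47, followed by Ly6c2 with 5.60. Nrg1, which encodes the epidermal growth factor-like ligand neuregulin 1, followed at 5.02, with 271 CPM in classical monocytes against 45.9 CPM in dendritic cells. Cd177 had a ratio of 3.61 and Gab1, an adaptor of growth factor receptors, had 3.41. The list held 4 interferon-stimulated genes, namely Ms4a4c with 440 CPM and a ratio of 3.43, Ifi27l2a with 1531 CPM and a ratio of 2.45, Ifi204 with 273 CPM and a ratio of 2.31, and Slfn5 with 226 CPM and a ratio of 2.27. These ratios are descriptions, since the gates fixed the classes.

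The members graded into the cells beyond the rule's limits. Of the 203 cells, 104 carried 1 of the 4 nonclassical genes, and 63 cells that met every other limit were left out because they carried 2. From cells with none of the 4 genes through those with 1 to those with 2, the summed level of F13a1 went from 824 to 707 to 446 CPM, that of Ly6c2 from 1077 to 992 to 751 CPM, and that of Nr4a1, the nuclear receptor of nonclassical monocytes, from 153 to 238 to 353 CPM. Fn1 stood at 1233 and 1199 CPM inside the limit and at 884 CPM just outside it. There were 9 members with 1 Ly6c2 UMI, while 36 cells failed for having none. There were 7 members with just 2 UMIs of Ccr2 and F13a1, and 13 cells failed with 1. No cell lay at the limits for Lyz2 or C1q.

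Classical monocytes were fewer in every ipilimumab mouse than in any IgG1 mouse. They made up 0.839% (38 cells; 95% Clopper-Pearson interval 0.594 to 1.15%), 1.39% (60 cells; 1.06 to 1.78%) and 1.02% (34 cells; 0.705 to 1.42%) of passing barcodes in the IgG1 mice. In the ipilimumab mice they made up 0.426% (22 cells; 0.267 to 0.644%), 0.433% (18 cells; 0.257 to 0.683%) and 0.742% (31 cells; 0.504 to 1.05%). The intervals cover counting error only. That of IgG1 replicate 1 overlapped those of all 3 ipilimumab mice, that of IgG1 replicate 3 overlapped ipilimumab replicate 3 alone, and that of IgG1 replicate 2 overlapped none of them. The mean was 1.08 ± 0.281% with IgG1 and 0.533 ± 0.180% with ipilimumab (SD, n = 3 each), a ratio of 0.493. The groups did not overlap, and the two-sided exact permutation test gave p = 0.1, the smallest that 3 mice against 3 allow. A quasi-likelihood test in edgeR on the cells of all 9 gates gave a log2 fold change of -1.02 (SE 0.421) and a Benjamini-Hochberg adjusted p = 0.0911, which did not pass 0.05.

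Nonclassical monocytes, the class nearest to them, made up 2.54 ± 0.722% of barcodes with IgG1 and 3.25 ± 0.941% with ipilimumab (exact permutation p = 0.4, n = 3 each). Among all monocytes, the classical share was 31.9%, 34.9% and 23.9% in the IgG1 mice and 13.2%, 9.09% and 22.1% in the ipilimumab mice. Here too the groups did not overlap, although IgG1 replicate 3 and ipilimumab replicate 3 were close (exact permutation p = 0.1, the smallest possible with n = 3 each).

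**Figure D2:**
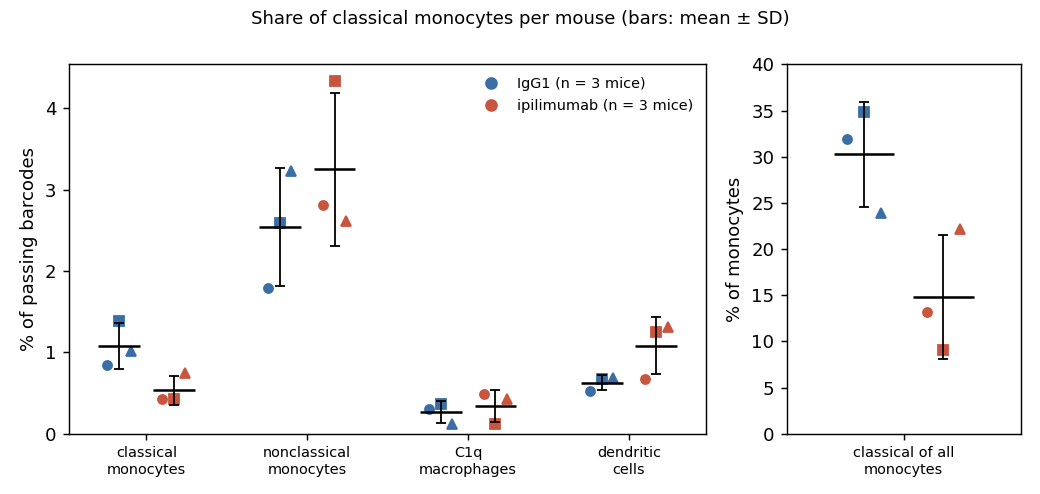
Left, share of passing barcodes in 4 gates; right, share of classical cells among classical and nonclassical monocytes. Points are mice (circle, square and triangle for replicates 1, 2 and 3), horizontal lines are means and vertical bars SD; the classical share is at most 0.742% in the ipilimumab mice and at least 0.839% in the IgG1 mice.

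The lower share held for most ways of setting it. It was 0.360 ± 0.114% against 0.158 ± 0.0700% when every barcode was thinned to 1000 UMIs before the rule was applied, and 4.65 ± 1.11% against 2.51 ± 0.867% of the myeloid gates, with no overlap in either case. The groups did overlap when members had to carry none of the 4 nonclassical genes, at 0.510 ± 0.140% against 0.275 ± 0.158% (exact permutation p = 0.3, n = 3 each), and ipilimumab replicate 3 then had 0.455%. Neutrophils moved with the same groups, at 8.09 ± 5.26% with IgG1 and 3.53 ± 0.113% with ipilimumab (edgeR log2 fold change -1.20, SE 0.374, adjusted p = 0.0253), with the highest share in the same mouse as for classical monocytes, IgG1 replicate 2. With neutrophils taken out of the total, the classical share was 1.19 ± 0.381% against 0.553 ± 0.186% and the groups remained apart. Barcodes in no gate moved against the classical share, at 17.4%, 18.6% and 19.6% in the IgG1 mice and 36.0%, 22.1% and 24.3% in the ipilimumab mice (exact permutation p = 0.1, the smallest possible with n = 3 each). Among barcodes in a gate the classical share was 1.33 ± 0.350% against 0.733 ± 0.220%, again apart. A share cannot separate fewer monocytes from more of other cells.

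Within classical monocytes no gene passed the test between treatments. Of 5073 genes with enough UMIs, 0 were called, which needed an absolute log2 fold change over 0.3 besides an adjusted p under 0.05 (edgeR quasi-likelihood test on sums per mouse; 0.0% called higher and 0.0% called lower). The smallest adjusted p was 0.514, and 27 of 14609 genes were called when the filter on low counts was left out. At an unadjusted p under 0.05 there were 253 genes, 99 higher (1.95%) and 154 lower (3.04%) with ipilimumab, and DESeq2 called 0 with 112 at that level. Groups did not overlap for 253 genes that were higher (4.99%) and 267 that were lower (5.26%), which is the background for the counts below. Levels in this comparison are in CPM of the tested genes after scaling by trimmed mean of M values (TMM), and they are relative within a cell, so that less RNA of a gene per cell and fewer cells with that gene cannot be told apart in the sums.

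The 24 interferon-stimulated genes that could be tested, of 31 in the files, were mostly lower with ipilimumab. Their log2 fold change was below 0 for 22 genes, where 49.1% of all genes lay below 0. Groups did not overlap, with ipilimumab lower, for 12 of the 24 (50%, against 5.26% of all genes), and 13 had an unadjusted p under 0.05 in that direction (3.04% of all genes). The median log2 fold change was -0.65, against 0.01 over all genes. None of the 24 was called, and none was higher with groups apart. The list had been chosen with earlier results of these data known.

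Of those 12 genes, 7 had a promoter entry, and promoter stretches are shown for the 4 of these that carried the letters GAAA, any 2 bases and GAAA again, on either strand, in the 250 bases before a start (RefSeq, GRCm38.p6), with the match in capitals, because these letters form the core to which the interferon-activated complex binds. Promoters were at hand for 17 of the 24 genes tested, and 8 of these (47.1%) held the letters, as did 154 of the 4089 tested genes with a promoter (3.77%) and 936 of 27025 genes in the table (3.46%). Each stretch is given on the strand of its gene and lies outside annotated exons (GENCODE vM21). The stretches of Isg15 and Bst2 each overlap further matches that are not in capitals. A match is a description of the letters and not of a bound site.
Rsad2, chr12:26456553-26456582, minus strand, match from 120 bases before the start: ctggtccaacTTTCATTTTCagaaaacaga
Isg15, chr4:156200871-156200900, minus strand, match from 72 bases before the start: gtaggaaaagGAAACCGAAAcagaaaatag
Bst2, chr8:71537577-71537606, minus strand, match from 124 bases before the start: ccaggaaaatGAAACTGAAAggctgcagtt
Trim30a, chr7:104465210-104465239, minus strand, match from 36 bases before the start: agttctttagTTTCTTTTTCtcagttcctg

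Effector genes are given first. Of the members named here, Isg15, Irf7, Ifitm3, Ifi27l2a and Ms4a4c were set by the rule for naming genes, and the others were named after their values were seen. Rsad2 (ENSMUSG00000020641; chr12:26442746-26456452, minus strand, GRCm38), which encodes the antiviral enzyme viperin, had 47.7, 45.4 and 97.6 CPM in the IgG1 mice and 0, 13.9 and 12.01 CPM in the ipilimumab mice. Its log2 fold change was -2.79 (SE 0.58, unadjusted p = 0.000201, edgeR adjusted p = 0.514). Behind these values lay 20, 33 and 40 UMIs against 0, 3 and 4 UMIs, found in 8 of 38, 9 of 60 and 10 of 34 cells against 0 of 22, 3 of 18 and 4 of 31 cells. Every IgG1 mouse was above every ipilimumab mouse in level, and single cells held up to 13 of the UMIs in the IgG1 mice and 1 at most in the ipilimumab mice. Oasl2, an oligoadenylate synthetase-like protein, had 54.8, 55.0 and 132 CPM against 35.0, 37.0 and 30.0 CPM. Its log2 fold change was -1.21 (SE 0.40, edgeR adjusted p = 0.954), with IgG1 replicate 3 far above its group, and without that mouse it was -0.71. Isg15, a ubiquitin-like modifier, had 119, 111 and 151 CPM against 50.6, 87.9 and 96.0 CPM. Bst2, or tetherin, which holds budding virus at the cell surface, had 200, 253 and 320 CPM against 105, 190 and 189 CPM. Neither gene overlapped between the groups, at log2 fold changes of -0.68 (SE 0.27) for Isg15 and -0.67 (SE 0.25) for Bst2, both with an edgeR adjusted p = 0.954. Without ipilimumab replicate 1 both values were -0.44.

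Transducers and sensors of the pathway came next. Stat2, a transcription factor that type I interferon activates, overlapped, at 60.2 ± 15.1 against 43.0 ± 11.1 CPM (n = 3 each), and so did Irf7, the amplifier of type I interferon production, at 146 ± 53.0 against 130 ± 82.2 CPM. Dhx58, a helicase that modulates RNA sensing, had 38.1, 34.4 and 34.2 CPM against 15.6, 18.5 and 12.01 CPM. Zbp1, a sensor of left-handed nucleic acids, had 110, 97.7 and 183 CPM against 66.2, 78.7 and 96.0 CPM. The groups did not overlap for Dhx58 or Zbp1, though the lowest IgG1 mouse and the highest ipilimumab mouse nearly met for Zbp1.

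Members of the PYHIN family, nuclear proteins that bind DNA, followed. Ifi204 had 317, 285 and 468 CPM against 175, 217 and 267 CPM (log2 fold change -0.68, SE 0.23, edgeR adjusted p = 0.954), and its log2 fold change was -0.45 without IgG1 replicate 3. Ifi209 stood at 101 ± 22.4 against 64.4 ± 8.70 CPM and Ifi211 at 127 ± 52.6 against 61.8 ± 38.3 CPM (n = 3 each), the former apart and the latter overlapping. Ifi203, which was not on the list but was among the genes with the smallest p, had 160, 164 and 295 CPM against 113, 97.2 and 63.0 CPM, with a log2 fold change of -1.19 (SE 0.29, edgeR adjusted p = 0.693). The other list members whose groups did not overlap were Ifi47, Parp14 and Trim30a, with log2 fold changes of -0.90, -0.58 and -0.50.

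The most abundant members did not share this. Ifitm3, which blocks virus entry, had 3432 ± 244 CPM with IgG1 and 3585 ± 158 CPM with ipilimumab, with a log2 fold change of 0.06 (SE 0.09). Ifi27l2a had 1608 ± 119 and 1636 ± 552 CPM, and its log2 fold change of 0.03 (SE 0.18) turned to -0.01 when library totals replaced TMM. Ms4a4c overlapped at 505 ± 55.3 against 426 ± 121 CPM. The whole list summed to 7752 ± 992 against 6755 ± 664 CPM of all UMIs, and these sums overlapped between the groups.

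**Figure D3:**
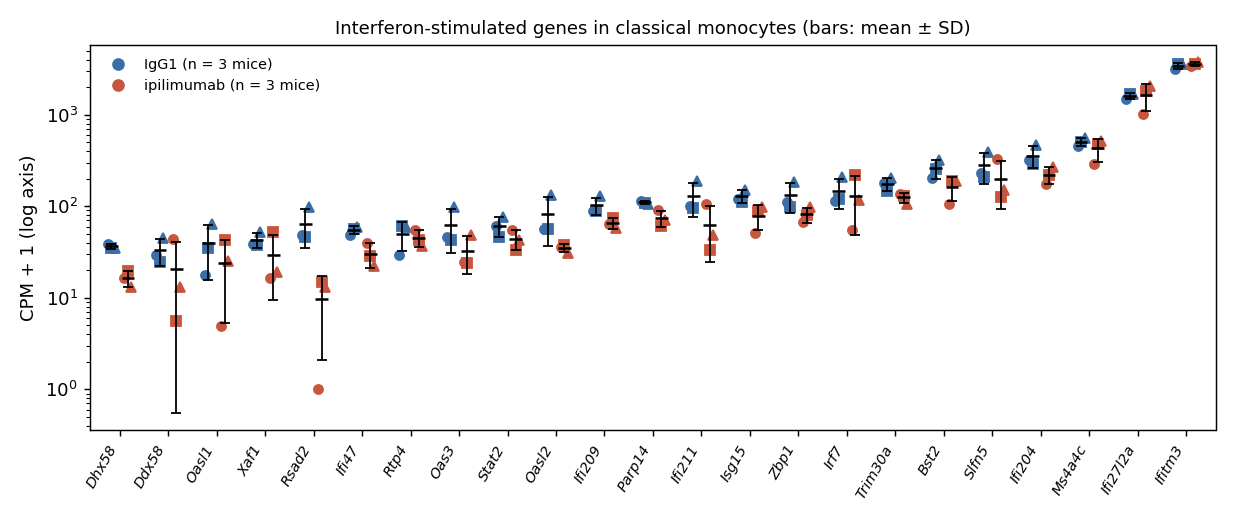
Levels of 23 interferon-stimulated genes tested in classical monocytes, as CPM + 1 on a log axis, ordered by mean level. Points are mice (circle, square and triangle for replicates 1, 2 and 3) and bars show mean ± SD; groups do not overlap for 11 genes, among them Rsad2, Oasl2 and Dhx58, while Ifitm3 and Ifi27l2a overlap.

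The pattern was also looked at cell by cell, without the 3 most abundant members, which were set aside after their values were seen and include the only 2 genes with a log2 fold change above 0. What follows for the other 21 genes is therefore a description. The other 21 genes summed to 2005, 1951 and 3075 CPM of all UMIs in the IgG1 mice and 1479, 1467 and 1393 CPM in the ipilimumab mice. The median cell had 18.1, 13.6 and 13.7 UMIs of these genes per 10000 UMIs with IgG1 and 10.4, 9.13 and 9.94 with ipilimumab. Both measures were apart between the groups for these 21 genes. Over all 24 genes the median cell had 61.2, 70.6 and 66.0 UMIs per 10000 UMIs with IgG1 and 58.2, 64.2 and 70.3 with ipilimumab, and the groups overlapped. The highest single cell reached 81.9, 128 and 152 per 10000 UMIs with IgG1 and 39.8, 81.6 and 69.6 with ipilimumab, and held 11.05% to 19.3% and 15.5% to 24.5% of a mouse's UMIs of the 21 genes. When the cell with most interferon-stimulated UMIs was left out of each library, 20 genes could be tested, of which 18 were below 0, and the median log2 fold change was -0.68.

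The size of the pattern depended on the test and on single mice. With DESeq2, 7 of the 24 genes had an unadjusted p under 0.05 in the lower direction, and 8 of 25 did in edgeR when fewer than 3 of the nonclassical genes were allowed. Without IgG1 replicate 3 the median log2 fold change of the list was -0.45 and 5 genes, not 13, had an unadjusted p under 0.05 in the lower direction; without ipilimumab replicate 3 there were 7, and without ipilimumab replicate 1 there were 12. Of 24 immediate early and dissociation genes, which report stress during tissue digestion, 17 were below 0, with a median log2 fold change of -0.24. Groups were apart for 2 that were lower (8.33%, against 5.26% of all genes) and for 1, Junb, that was higher (log2 fold change 0.22), shares near those of all genes. Their part in the result was not tested.

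Nonclassical monocytes of the same mice gave similar values for the list. There, 24 of 25 members tested were below 0 (50.5% of all genes were), the median log2 fold change was -0.56, 5 were lower with groups apart (20%, against 7.25% of 7988 genes), and 0 were called by edgeR. Other lists moved in the same sums. All 11 endothelial markers tested were above 0, at a median of 1.22. Of 10 MHC class II and dendritic cell genes, 8 were below 0, at a median of -0.80. Of 26 immediate early and dissociation genes, 16 were below 0, and 5 were lower with groups apart (19.2%, against 7.25% of all genes). Their part in the values of the interferon list was not tested. Rsad2 overlapped in nonclassical monocytes, at a log2 fold change of -0.56 (SE 0.68), where it was -2.79 in classical monocytes. Ifi27l2a went the other way about, at -1.11 (SE 0.24) in nonclassical and 0.03 in classical monocytes. The difference of the 2 effects was tested with mouse as a block. It passed for 0 of 7586 genes (0.0% called; 565 at an unadjusted p under 0.05, or 7.45%; DESeq2 called 0), and the edgeR adjusted p was 0.704 for Rsad2 and 0.429 for Ifi27l2a. Against C1q macrophages, of which a mouse had 4 to 25 cells, it passed for 0 of 4837 genes (0.0% called; 201 at an unadjusted p under 0.05, or 4.16%).

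**Figure D4:**
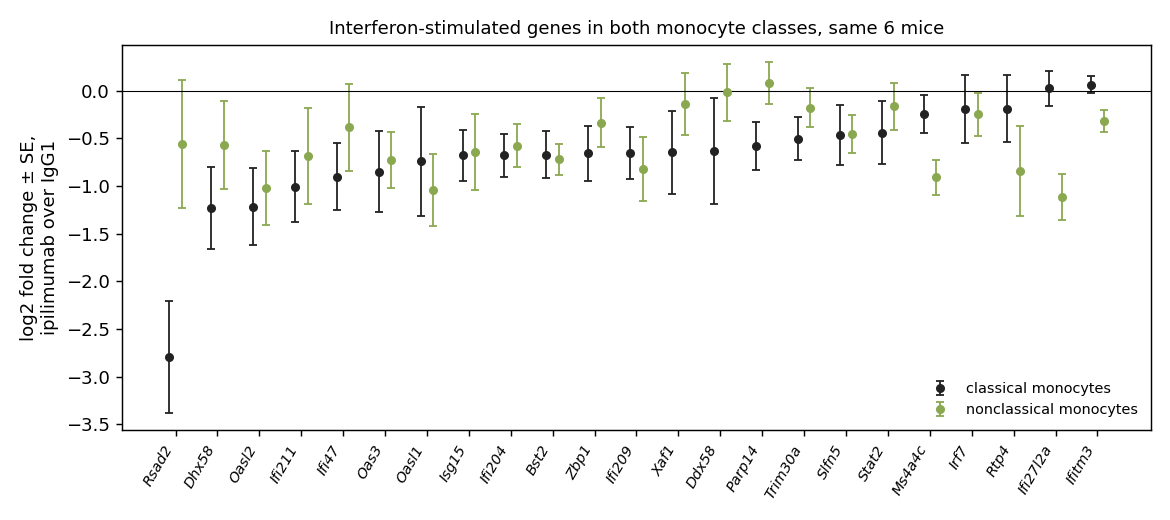
Log2 fold change (ipilimumab over IgG1) ± SE of interferon-stimulated genes tested in both classes, in classical (black) and nonclassical (green) monocytes of the same 6 mice, ordered by the classical value. Most points of both classes lie below 0, Rsad2 is lowest in classical monocytes at -2.79, and Ifi27l2a is at 0.03 and -1.11.

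Of the genes that type II interferon induces, 15 were tested. The log2 fold change was below 0 for 10 of them, 3 were lower with groups apart (20%, against 5.26% of all genes), and the median log2 fold change was -0.05. Gbp2, a guanylate-binding protein, had 54.8, 37.2 and 139 CPM against 3.89, 13.9 and 24.0 CPM, a log2 fold change of -2.30 (SE 0.60, edgeR adjusted p = 0.762), and was singled out after its values were seen. IgG1 replicate 3 was again the highest mouse. Psmb8, a subunit of the immunoproteasome, overlapped at 276 ± 32.1 against 303 ± 80.7 CPM, and Cxcl9 had 0 UMIs in all mice.

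Of the markers of the class itself, 15 were tested, of which 12 had a log2 fold change below 0 and none was called, and the median was -0.16. Ly6c2 had 1225, 1256 and 991 CPM with IgG1 and 724, 1166 and 912 CPM with ipilimumab, and overlapped. F13a1 had 908, 821 and 881 CPM against 611, 805 and 693 CPM and did not, at a log2 fold change of -0.31 (SE 0.14, edgeR adjusted p = 0.954); both genes were used by the rule, in all mice alike. Fn1 had 1516, 1211 and 1164 CPM against 1390, 1217 and 1258 CPM, with a log2 fold change of -0.01 (SE 0.13). Chil3, a chitinase-like protein of recently arrived monocytes, had 842 ± 88.0 against 619 ± 126 CPM and overlapped.

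In nonclassical monocytes, where the rule allowed any Ly6c2 level, 13 of 16 classical markers were below 0 with ipilimumab, at a median of -0.44, and 6 were lower with groups apart (37.5%, against 7.25% of all genes). In the same sums 17 of 18 nonclassical markers were above 0, at a median of 0.21. So were all 11 endothelial markers tested, at a median of 1.22. The nonclassical gate also held cells that met every other limit of the classical rule. Those with 2, 3 and 4 of the nonclassical genes numbered 40, 29 and 3 with IgG1 and 23, 17 and 3 with ipilimumab. The whole gate held 81, 112 and 108 cells in the IgG1 mice and 145, 180 and 109 in the ipilimumab mice. The part of these cells and of the other lists in the lower classical markers was not tested. Ly6c2 had a log2 fold change of -0.97 (SE 0.40) in nonclassical against -0.31 (SE 0.16) in classical monocytes, and Ccr2 had -0.88 (SE 0.29) against -0.09 (SE 0.17). With 1 mouse left out, the value of Ly6c2 in classical monocytes ranged from -0.49 to -0.16. Neither Ly6c2 nor Ccr2 was called in either class. The rule used both genes to choose the classical cells, so these values are a description and no test of their difference is given.

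Receptors that draw monocytes into tissue had no called gene. Of 18 trafficking and adhesion genes tested, 1 was lower with groups apart (5.56%, against 5.26% of all genes), and the median log2 fold change was -0.03. Ccr2 had 733 ± 154 against 688 ± 102 CPM and Cx3cr1, the fractalkine receptor of nonclassical cells, had 160 ± 67.7 against 146 ± 35.5 CPM (n = 3 each).

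Of the costimulatory, checkpoint and Fc receptor genes, 17 were tested, with 10 above and 7 below 0 and a median of 0.08. Groups were apart for 1 in each direction (5.88%, against 4.99% of all genes higher and 5.26% lower). Cd86, a CTLA4 ligand, had 719 ± 164 CPM with IgG1 and 768 ± 47.0 CPM with ipilimumab. Cd80, the other ligand, had 139 ± 14.3 and 134 ± 16.7 CPM. Cd274, which encodes PD-L1, had 35.8, 31.6 and 22.0 CPM against 7.79, 9.25 and 30.0 CPM and overlapped. Among Fc receptors, Fcgr3 had 319 ± 72.8 against 392 ± 66.9 CPM and Fcgr1, the high-affinity receptor, had 86.1 ± 16.3 against 64.0 ± 20.3 CPM, with overlap in both.

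Matrix and fibrosis genes were abundant and none was called. Of 14 tested, 9 were above and 5 below 0, with a median of 0.04, and 1 was lower with groups apart (7.14%, against 5.26% of all genes). That gene was F13a1, which the rule used to choose the cells. Thbs1, the matricellular protein thrombospondin 1, had 2165, 2927 and 2574 CPM against 3192, 1772 and 3905 CPM, with a wide spread in the ipilimumab mice. Tgfb1 had 514 ± 45.9 against 611 ± 97.8 CPM and Tgfbi, a matrix protein that TGF-β induces, had 504 ± 68.1 against 520 ± 83.7 CPM. Lgals3, or galectin 3, had 2087 ± 331 against 2598 ± 390 CPM, a log2 fold change of 0.31 (SE 0.13, edgeR adjusted p = 0.954), and overlapped.

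Cytokine and chemokine genes gave 10 of 15 below 0, a median of -0.15 and 1 gene lower with groups apart (6.67%, against 5.26% of all genes). Ccl2, the ligand of CCR2, had 391, 241 and 488 CPM against 125, 403 and 156 CPM. Ccl9 had 724 ± 22.4 against 667 ± 97.0 CPM and Il1b had 426 ± 90.5 against 523 ± 178 CPM, and all 3 overlapped. Of 24 pattern recognition and inflammasome genes, 18 were below 0 and 4 were lower with groups apart (16.7%, against 5.26% of all genes), with a median of -0.10. Myd88, Casp1 and Nlrp3 were among those apart and were named after their values were seen. Myd88, the adaptor of most Toll-like receptors, had 64.4, 49.5 and 75.6 CPM against 42.8, 18.5 and 15.01 CPM, at a log2 fold change of -1.30 (SE 0.40, edgeR adjusted p = 0.945). Casp1 and Nlrp3, the protease and the sensor of the inflammasome, had log2 fold changes of -0.79 (SE 0.35) and -0.42 (SE 0.21), and Cd14 was level at 1472 ± 266 against 1432 ± 155 CPM.

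Transcription factors and growth factor receptors gave 15 of 25 below 0, a median of -0.08 and 2 genes higher with groups apart (8.0%, against 4.99%). Csf1r, the receptor for the macrophage growth factor, had 360, 351 and 373 CPM with IgG1 and 428, 407 and 450 CPM with ipilimumab, at a log2 fold change of 0.25 (SE 0.16, edgeR adjusted p = 0.954). Cebpb, a transcription factor of monocyte survival, had 2985, 3150 and 2911 CPM against 3192, 3197 and 3872 CPM. Klf4, which monocytes need for their development, had 614 ± 177 against 422 ± 12.1 CPM and overlapped. The 9 MHC class II and dendritic cell genes tested had a median of -0.10 with no groups apart, which ranged from -0.53 to 0.27 when 1 mouse was left out. H2-Aa had 403, 521 and 207 CPM against 424, 796 and 90.04 CPM, so that ipilimumab replicates 2 and 3 held the highest and lowest values of all mice. Of the 203 cells, the median had 2 UMIs and the 10% with most at least 61.2 UMIs of H2-Aa, H2-Ab1, H2-Eb1 and Cd74 together. Interstitial macrophage and maturation genes had 6 of 11 above 0, a median of 0.08 and 2 higher with groups apart (18.2%, against 4.99% of all genes). Nonclassical markers had 7 of 12 below 0 and a median of -0.05, and the 6 cell division genes tested had a median of 0.12.

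**Figure D5:**
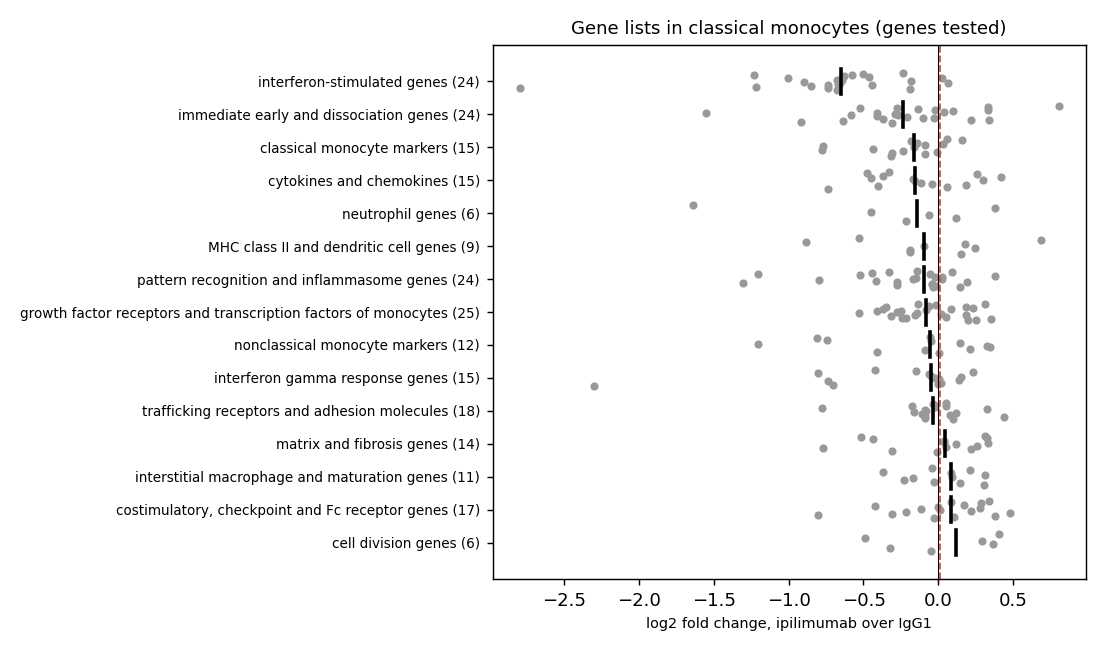
Log2 fold change (ipilimumab over IgG1) in classical monocytes of each tested gene (grey points) in the 15 lists with at least 5 genes tested; the number tested stands after the name. Black bars are list medians and the dashed line is the median of all genes; the median of the interferon-stimulated genes is -0.65 and the others lie between -0.24 and 0.12.

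Without regard to the lists, the genes with the smallest p among those apart between the groups, at a mean of at least 50 CPM, were followed in each direction, 8 to a side. None passed the adjustment. Fnip2 (chr3:79455974-79567796, minus strand, GRCm38), a folliculin partner in nutrient sensing, had 355, 443 and 324 CPM with IgG1 and 498, 800 and 795 CPM with ipilimumab, a log2 fold change of 0.89 (SE 0.19, edgeR adjusted p = 0.514). It reached an adjusted p under 0.05 when ipilimumab replicate 1, its lowest ipilimumab mouse, was left out. F5, coagulation factor V, had 157, 187 and 163 CPM against 514, 250 and 294 CPM, a log2 fold change of 1.05 (SE 0.24, edgeR adjusted p = 0.663), which was 0.68 without ipilimumab replicate 1. Abr, Rbm8a, a core protein of the exon junction complex, and Anp32e, a histone chaperone, had log2 fold changes of 0.81, 0.76 and 0.91. E230029C05Rik, 4930402H24Rik and Gas2l3 completed that side at 1.1, 0.97 and 0.99.

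On the lower side, Lrrk2 (chr15:91673175-91816120, plus strand), a kinase with roles at lysosomes, had 88.2, 50.9 and 117 CPM with IgG1 and 11.7, 23.1 and 27.0 CPM with ipilimumab, a log2 fold change of -1.96 (SE 0.42, edgeR adjusted p = 0.514). Its log2 fold change in nonclassical monocytes was 0.34 (SE 0.19), and the difference of the effects was -2.27 with an edgeR adjusted p of 0.262. Zfand2a, a target of heat shock factor 1, had 88.2, 79.8 and 75.6 CPM against 38.9, 27.8 and 36.0 CPM, and Hspa1a, a heat shock protein named after its values were seen, had a log2 fold change of -1.55 (SE 0.50). Tob2, an antiproliferative protein, had 217, 235 and 200 CPM against 136, 106 and 126 CPM, with little spread in either group. Fosb, an immediate early transcription factor that is also on the list of dissociation genes, had 443, 274 and 425 CPM against 121, 259 and 222 CPM, and the groups nearly met. Zcchc7, Arl15 and Ppp1r15b, the last a subunit of a phosphatase that ends translational arrest, had log2 fold changes of -0.83, -0.77 and -0.85.

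The share of cells with a UMI of selected genes was compared after thinning each cell to 1000 UMIs. Fnip2, which was followed because its groups were apart in the same cells and is given as a description, was found in 23.8 ± 6.18% of cells with IgG1 and 39.4 ± 6.68% with ipilimumab (68.8 ± 9.48% and 82.8 ± 8.37% unthinned), against 0.122% of B cells thinned alike. The thinned share of Cd80 went from 14.9 ± 3.38% to 2.59 ± 2.34% while its CPM was level, so no order was read from it.

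Markers of other cells were low in the sums. B cell markers summed to 145 ± 39.0 CPM with IgG1 and 122 ± 15.8 CPM with ipilimumab, led by Ighm, with Cd79a at 0 by the rule. T and NK cell markers summed to 167 ± 151 and 227 ± 340 CPM, led by Ccl5, with 620 CPM in ipilimumab replicate 1. Epithelial markers came to 9.79 ± 6.78 and 31.4 ± 17.6 CPM, led by Scgb1a1, with 7 of 13 genes at 0. Fibroblast and mural markers came to 120 ± 14.7 and 109 ± 26.5 CPM, nearly all Gsn, with 8 of 11 at 0, Col1a1 among them. Endothelial markers came to 82.7 ± 90.8 and 18.2 ± 4.70 CPM, led by Pecam1, platelet and erythroid markers to 7.87 ± 6.06 and 4.004 ± 4.17 CPM, and mast cell and basophil markers to 0.761 ± 1.32 and 2.46 ± 4.26 CPM. Alveolar macrophage markers came to 894 ± 74.4 and 718 ± 133 CPM, nearly all Chil3, with Marco and Fabp1 at 0, and Atp6v0d2 at 0 by the rule. Neutrophil genes summed to 475, 1597 and 513 CPM in the IgG1 mice and 590, 511 and 727 CPM in the ipilimumab mice, led by Clec4d. The high value of IgG1 replicate 2 held 508 UMIs of S100a8 and S100a9, the subunits of calprotectin, of which 332 lay in 1 cell.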

How the data were processed

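One lung library per mouse was analysed, 3 for IgG1 and 3 for ipilimumab. The deposited values are counts of UMIs per gene and barcode for all barcodes (709949 to 874198 per file, 32285 genes), which the authors made by aligning reads to mm10 with Cell Ranger. The file headers, the methods and the submitters' processing notes (7.0.0) name different releases of it. The authors' later correction of ambient RNA, clusters and cell names were not used here. The rule, gene lists and tests were chosen with earlier results of these data known.

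Barcodes were gated by marker UMIs, and UMIs were summed per mouse and class. Genes were filtered with filterByExpr, scaled by TMM and tested with the edgeR quasi-likelihood test (edgeR 4.0.16, R 4.3.3) with Benjamini-Hochberg adjustment over all genes tested. DESeq2 (1.42.0) was an alternative. Shares were compared with exact two-sided permutation tests over mice (scipy 1.17.1). Named genes were the markers, the genes of the rule, a fixed set, the most abundant members of each list, and, since none was called, the 8 with the smallest p in each direction among genes that were apart and at or above 50 CPM; other list members were named after their values were seen. No doublet caller was run; the rule bars a few B cell, T cell, dendritic cell and alveolar macrophage genes but no marker of neutrophils, NK cells or structural cells. Labels number the replicates but give no shared litter or batch, and same-numbered mice had correlations of 0.0758, -0.00966 and -0.0722, so the numbers were not taken as pairs. The tests were checked on simulated counts, and no result of that check is given here. The labels do not say how the mice were housed or processed together, so p-values measure the spread between these libraries. IDs of 32235 of the 32285 genes matched GENCODE vM21. Results for some genes are not reported here.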

Additional observations from a re-analysis of the deposited data

Results flagged for a closer look

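Ipilimumab replicate 1 held 16682 barcodes of at least 100 but under 1000 UMIs, against 1279 to 1442 in the IgG1 libraries and at most 2023 in the other 5 libraries. These barcodes lay below the limit of 1000 UMIs and entered no comparison. In the same library 36.0% of passing barcodes fell in no gate.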

How the results depend on the processing

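The lower share of classical monocytes kept its direction in all settings run, with a ratio of 0.440 to 0.552 over other gates, limits and denominators and 0.397 to 0.575 when 1 mouse was left out. The groups overlapped only when none of the 4 nonclassical genes was allowed (p = 0.3, exact permutation). That gate, the gate of fewer than 3 nonclassical genes, the totals without neutrophils or of gated barcodes, and the removal of each library's cell with most interferon-stimulated UMIs were chosen after seeing the data. With replicate numbers as a block, the exact permutation p of the share was 0.25 and 0 genes were called, with 256 at an unadjusted p under 0.05; the block changed no call, and the numbers are not known to pair the mice.

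Without the low-count filter edgeR called 27 of 14609 genes in classical monocytes, 9 higher and 18 lower, led by S100a9 and S100a8. Of the genes named above these were Fnip2, F5, Lrrk2, Ifi203, Fosb, Rsad2, Gbp2 and Vcan. Leaving out 1 mouse gave 0 to 2 calls. The 2 were Fnip2 (adjusted p = 0.0384) and Gm42418, without ipilimumab replicate 1. The difference of effects from nonclassical monocytes was called for 70 of 18291 genes without the filter and for 0 to 2 with 1 mouse left out, and that from C1q macrophages for 0 to 0. The cause was not tested. Thinning left 4 interferon-stimulated genes and 581 genes to test.

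Of 281 list medians recomputed, 252 moved by less than the spread between mice. With cells thinned to 1000 UMIs the median log2 fold change was -0.0090 for classical markers, 0.25 for interstitial macrophage genes, -0.21 for interferon-stimulated genes and 0.027 for growth factor receptors and transcription factors. Without the filter it was -0.21 for classical markers and -0.14 for growth factor receptors and transcription factors. Without cells above the 95th percentile of UMIs it was 0.010 for interstitial macrophage genes, -0.26 for cytokines and -0.021 for cell division genes. With none of the 4 nonclassical genes it was 0.0065 for interstitial macrophage genes, -0.43 for interferon-stimulated genes, 0.031 for cytokines, 0.069 for pattern recognition genes, 0.16 for costimulatory genes, -0.0075 for growth factor receptors and transcription factors and 0.40 for cell division genes. With fewer than 3 of them it was -0.053 for classical markers and 0.0028 for growth factor receptors and transcription factors.

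With 1 mouse left out, list medians ranged from -0.21 to -0.15 for classical markers, -0.081 to 0.13 for interstitial macrophage genes, -0.76 to -0.45 for interferon-stimulated genes, -0.31 to -0.012 for cytokines, -0.0049 to 0.15 for costimulatory genes, -0.11 to 0.0072 for growth factor receptors and transcription factors, 0.0046 to 0.27 for cell division genes, -0.47 to 0.29 for neutrophil genes, -0.53 to 0.27 for MHC class II and dendritic cell genes, -0.35 to -0.057 for immediate early genes, -0.19 to 0.11 for nonclassical markers, -0.058 to 0.12 for matrix genes, -0.080 to 0.078 for trafficking genes, -0.20 to -0.093 for pattern recognition genes and -0.22 to -0.00044 for interferon gamma genes.

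Of 70 genes followed, 53 kept their sign in all settings run. The log2 fold change of Ifi27l2a turned to -0.0097 without TMM, -0.0087 with the ambient profile subtracted, -0.022 without the filter, -0.017 with the looser gate, -0.027 with the replicate block and -0.14 after thinning. H2-Aa turned to -0.041 with the block, -0.27 with the stricter gate, -0.48 after thinning, -0.50 with fewer than 3 nonclassical genes and -0.36 without each library's cell with most interferon-stimulated UMIs. Thinning turned F13a1 to 0.047, Fn1 to 0.0033, Thbs1 to -0.082, Lgals3 to -0.041, Il1b to -0.11 and Cd14 to 0.044, and leaving out the filter turned Tgfbi to -0.0040. Leaving out cells above the 95th percentile turned Irf7 to 0.064, Cd80 to 0.21 and Cd14 to 0.028. With none of the nonclassical genes Ccr2 was at 0.073, Ccl9 at 0.031, Cd80 at 0.47 and Cd14 at 0.017, and with fewer than 3 Fn1 was at 0.033, Chil3 at 0.0053, Cd80 at 0.051 and Cd14 at 0.080. With 1 mouse left out, log2 fold changes ranged from -0.20 to 0.093 for Ccr2, -0.13 to 0.12 for Cd14, -0.15 to 0.048 for Cd80, -0.080 to 0.20 for Cd86, -0.44 to 0.15 for Cx3cr1, -0.088 to 0.12 for Fn1, -0.61 to 0.65 for H2-Aa, -0.20 to 0.28 for Ifi27l2a, -0.0055 to 0.52 for Il1b, -0.71 to 0.17 for Irf7, -0.43 to 0.0070 for Rtp4, -0.056 to 0.17 for Tgfbi and -0.045 to 0.48 for Thbs1. The cause of these turns was not tested. With 18 to 60 cells per mouse, 5073 of the 14609 genes with a UMI passed the low-count filter.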
